A study of Mus musculus with 12 samples.

Results

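The genes described here are 10 components of the TGF-beta and SMAD pathway: Tgfb1, Tgfbr1, Tgfbr2, Smad2, Smad3, Smad4, Smad7, Ski, Skil and Tgif1. They were chosen by symbol, and all 10 were found among the 14323 symbols of the count table. RNA was sequenced from naïve CD8+ T cells (sorted by surface markers of naïve CD8+ T cells, CD44- among them) from spleens of 3 wild type mice, which the methods describe as adult animals on a C57BL/6N background. From each mouse, wells of 100000 cells were cultured for 6 h on coated plastic, giving 12 libraries of 3 mice in 4 conditions. Unstimulated wells carried isotype control, alone or with 2.5 µg/ml of 2C7, an agonistic antibody to the collagen receptor LAIR-1. Stimulated wells carried 2.5 µg/ml of anti-CD3ε (clone 145-2C11), with isotype control or with anti-LAIR-1 at 2.5 µg/ml. Neither TGF-beta nor anti-CD28 is among the agents described, and only RNA was measured.

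TGF-beta is a cytokine that holds naïve T cells in a resting state and restrains their effector programme. It binds the type II receptor TGFBR2, which activates the type I receptor TGFBR1, and this kinase phosphorylates SMAD2 and SMAD3. Both then enter the nucleus with the common partner SMAD4 and regulate target genes. SMAD7 is an inhibitory SMAD that is itself induced by the pathway and blocks the receptor, while SKI, SKIL (SnoN) and TGIF1 are corepressors that hold SMAD target genes off.

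The starts of 3 of these genes are shown because the genes differed in their response to anti-CD3: the RNA of Tgfbr2 and Ski fell and that of Tgfbr1 did not pass the test. Each sequence runs 5′ to 3′ on the strand of the gene, from 250 bases before to 50 bases after the RefSeq gene start in GRCm38.p6 (mm10). Capitals mark matches, on either strand, to the motifs searched, namely the SMAD box CAGAC, the GC-rich SMAD site GGCGC, the AP-1 site TGANTCA, the GC box GGGCGG and the FOXO site TGTTTAC.
Tgfbr2, chr9:116175314-116175613, minus strand: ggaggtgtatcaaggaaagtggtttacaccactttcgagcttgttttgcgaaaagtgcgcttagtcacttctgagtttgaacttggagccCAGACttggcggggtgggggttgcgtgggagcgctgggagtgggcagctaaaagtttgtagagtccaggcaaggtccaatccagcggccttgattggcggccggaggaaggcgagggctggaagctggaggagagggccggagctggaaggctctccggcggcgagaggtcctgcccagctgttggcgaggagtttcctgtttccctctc
Tgfbr1, chr4:47352972-47353271, plus strand: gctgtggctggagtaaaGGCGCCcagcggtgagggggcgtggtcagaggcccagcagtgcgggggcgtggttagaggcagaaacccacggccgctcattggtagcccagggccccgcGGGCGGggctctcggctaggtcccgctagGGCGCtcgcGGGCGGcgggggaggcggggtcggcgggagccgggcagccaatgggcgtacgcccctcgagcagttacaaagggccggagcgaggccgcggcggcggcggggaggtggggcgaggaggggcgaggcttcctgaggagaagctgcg
Ski, chr4:155222486-155222785, minus strand: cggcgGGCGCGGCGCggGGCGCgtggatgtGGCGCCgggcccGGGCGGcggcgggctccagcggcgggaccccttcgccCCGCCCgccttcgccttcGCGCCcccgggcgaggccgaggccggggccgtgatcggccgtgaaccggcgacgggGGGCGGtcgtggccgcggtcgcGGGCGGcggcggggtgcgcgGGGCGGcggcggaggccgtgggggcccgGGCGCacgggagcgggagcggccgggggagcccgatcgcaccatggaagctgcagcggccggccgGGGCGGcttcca

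The Tgfbr2 window, with 59% G and C, held 1 SMAD box and no other motif of those searched. The Tgfbr1 window shown, with 74.7% G and C, held 3 GC-rich SMAD sites and 2 GC boxes, and the Ski window, with 85.3%, held 7 and 6. Where the letters of GGCGC and its reverse complement overlap (GGCGCC), both strands count. Of all 32851 promoter windows in the RefSeq table, 49.6% held the SMAD box, 36.9% the GC-rich SMAD site, 35.7% the GC box, 7.81% the AP-1 site and 3.65% the FOXO site. A second RefSeq entry of Tgfbr1, at chr4:47385966-47386265 with 52% G and C, held 1 SMAD box and no other motif of those searched. These matches describe letters only. Promoter entries were found for 6 of the 10 genes, and no entry was used for Smad2, Smad4, Smad7 or Skil.

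Library totals ran from 1781218 to 7725545 counts on genes, and 3 counts corresponded to 0.407 to 1.58 CPM (counts relative to library size in edgeR's usual unit, scaled by TMM library factors). Such limits cover counting error alone, since the methods do not say whether reads of the same molecule were collapsed. Markers of CD8 T cells (Cd3d, Cd3e, Cd3g, Cd8a, Cd8b1 and Lck) summed to 1881 to 3684 CPM in every library. The summed level was 1.08 to 9.99 CPM for 5 B cell genes, 0.268 to 4.21 CPM for 5 myeloid and dendritic cell genes, 0 to 1.06 CPM for 2 NK cell genes and 0 to 5.26 CPM for 3 platelet genes. Of 3 markers of CD4 and regulatory T cells, Cd4 and Foxp3 each stayed under 5 CPM, while Ikzf2 carried most of their sum, which was 21.9 to 52.2 CPM in unstimulated and 7.29 to 13.3 CPM in stimulated libraries. Markers of naïve T cells (Ccr7, Lef1, Tcf7 and Il7r) summed to 1841 to 2119 CPM in unstimulated and 276 to 410 CPM in stimulated libraries, while 5 activation genes (Il2ra, Cd69, Egr2, Nr4a1 and Myc) summed to 188 to 222 and 1905 to 2438 CPM. Mitochondrial genes took 17.6 to 20.9% of counts in unstimulated and 11.5 to 13.2% in stimulated libraries.

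To find how T cell receptor stimulation alone changed the pathway, the libraries with anti-CD3 and isotype were compared with the unstimulated isotype libraries. RNA of the ligand-binding receptor Tgfbr2, the common Smad4, the inhibitory Smad7 and the corepressors Ski and Skil fell, by factors that left 14.3% (Smad7) to 56.6% (Skil) of the unstimulated level. The receptor Tgfbr1, the receptor-activated Smad2 and Smad3 and the corepressor Tgif1 did not pass the test. Of the 9 genes tested, 5 were lower and 0 were higher (adjusted p under 0.05 in edgeR), against 36.1% lower and 35.3% higher, or 71.3% in all, of 8690 genes tested. Their median log2 fold change was -0.82, beside -0.03 over all genes. A cell that loses RNA and a well that loses cells of a type cannot be told apart in such bulk samples. Levels here are relative to library size, so a fall is one of the share, and RNA per cell was not measured.

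Tgfb1 encodes the TGF-beta1 ligand and lies at chr7:25687002-25705077. It was counted only 2 to 14 times per library, which was too low for the test against unstimulated cells. Its level was 2.65, 2.38 and 1.05 CPM in the unstimulated isotype libraries of mice 1, 2 and 3 and 2.46, 3.00 and 2.27 CPM with anti-CD3 and isotype. The groups overlapped, and no difference was detectable at this depth. With anti-LAIR-1, the values were 2.21, 2.11 and 0.803 CPM unstimulated and 1.63, 1.53 and 2.96 CPM with anti-CD3. Platelets are a known source of TGF-beta1, and their markers Pf4, Ppbp and Itga2b summed to 0 to 1.33 CPM in the unstimulated isotype and 0.214 to 0.810 CPM in the anti-CD3 isotype libraries. With anti-LAIR-1 they summed to 2.14 to 5.26 CPM unstimulated and 0.813 to 2.55 CPM with anti-CD3. The part of these cells in the Tgfb1 values was not tested.

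Among the receptors, Tgfbr2 (chr9:116084293-116175360, minus strand) had 175, 155 and 139 CPM in the unstimulated isotype libraries of mice 1, 2 and 3. With anti-CD3 and isotype, the same mice gave 26.7, 25.7 and 29.8 CPM. All 3 stimulated libraries were far below every unstimulated one. The log2 fold change of Tgfbr2 was -2.58 ± 0.13 (SE, the standard error of the fit, adjusted p = 1.4e-14 in edgeR's quasi-likelihood fit), which left 0.167 of the level. The differences in the single mice were -2.69, -2.57 and -2.21 in log2 CPM.

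The partner receptor Tgfbr1 (chr4:47353222-47414931) did not pass the test. It had 30.5, 32.1 and 22.1 CPM unstimulated and 24.9, 25.9 and 27.4 CPM with anti-CD3 and isotype, and the groups overlapped. Its log2 fold change was -0.20 with a 95% interval of -0.57 to 0.17 (adjusted p = 0.320 in edgeR). A fall of the size of that of Tgfbr2 lies outside this interval.

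The receptor-activated SMADs, which carry the signal from the receptor, did not pass either. Smad2 (chr18:76241580-76310963) had 28.2, 25.8 and 27.9 CPM unstimulated and 36.3, 32.2 and 31.9 CPM with anti-CD3 and isotype. The groups did not overlap, but the log2 fold change of 0.21 did not pass the test (95% interval -0.13 to 0.55, adjusted p = 0.249 in edgeR). Smad3 (chr9:63646767-63757994, minus strand) had 21.9, 21.0 and 23.1 CPM unstimulated and 17.5, 20.6 and 20.6 CPM stimulated. Its groups did not overlap either, with a log2 fold change of -0.23 (95% interval -0.63 to 0.17, adjusted p = 0.289 in edgeR). Among all genes tested, 73.4% had groups that did not overlap in this comparison, and among the 9 pathway genes 7 did.

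Smad4 (chr18:73639009-73703780, minus strand), the partner of both, fell. Its RNA was 68.4, 68.6 and 62.6 CPM unstimulated and 26.7, 22.5 and 28.3 CPM with anti-CD3 and isotype. Every stimulated library was below every unstimulated one, with a log2 fold change of -1.44 ± 0.14 (SE, adjusted p = 4.9e-09 in edgeR). A processed pseudogene, AC132418.2, overlaps Smad4 on the opposite strand in the annotation, and whether it affected the counts of Smad4 was not tested.

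Smad7 (chr18:75367529-75395935), the feedback inhibitor of the receptor, had the largest fall of the 9 tested genes. The level was 37.2, 43.6 and 30.0 CPM unstimulated and 4.61, 5.36 and 6.31 CPM with anti-CD3 and isotype. The groups were far apart, and the log2 fold change was -2.81 ± 0.23 (SE, adjusted p = 1.4e-10 in edgeR). The differences in mice 1, 2 and 3 were -2.89, -2.92 and -2.16 in log2 CPM.

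Of the 3 corepressors, Ski and Skil fell and Tgif1 did not pass. Ski (chr4:155154075-155222592, minus strand) had 127, 178 and 154 CPM unstimulated and 58.4, 68.0 and 63.8 CPM with anti-CD3 and isotype, a log2 fold change of -1.34 ± 0.13 (SE, adjusted p = 2.3e-09 in edgeR). Its paralogue Skil (chr3:31095058-31122577) had 49.8, 44.4 and 65.7 CPM unstimulated and 29.5, 32.6 and 31.9 CPM stimulated, a log2 fold change of -0.82 ± 0.16 (SE, adjusted p = 6.5e-05 in edgeR). In both genes the stimulated libraries were all below the unstimulated ones. Tgif1 (chr17:70844205-70853546, minus strand), a homeodomain corepressor, had 180, 225 and 183 CPM unstimulated and 211, 203 and 214 CPM with anti-CD3 and isotype. These ranges overlapped, and its log2 fold change was 0.02 (95% interval -0.20 to 0.23, adjusted p = 0.896 in edgeR). The annotation also lists Tgif1-ps, a processed pseudogene named after Tgif1. Reads mapping equally well to multiple places had been removed, and whether the pseudogene affected the counts of Tgif1 was not tested. With upper quartile scaling the median of all genes was -0.20 and with library totals alone -0.12, and under these scalings Tgif1 was -0.16 and -0.08. The 5 falls passed in all 16 other settings. The marker sums and the mitochondrial share given above also moved with anti-CD3, and their part in these falls was not tested.

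**Figure D1:**
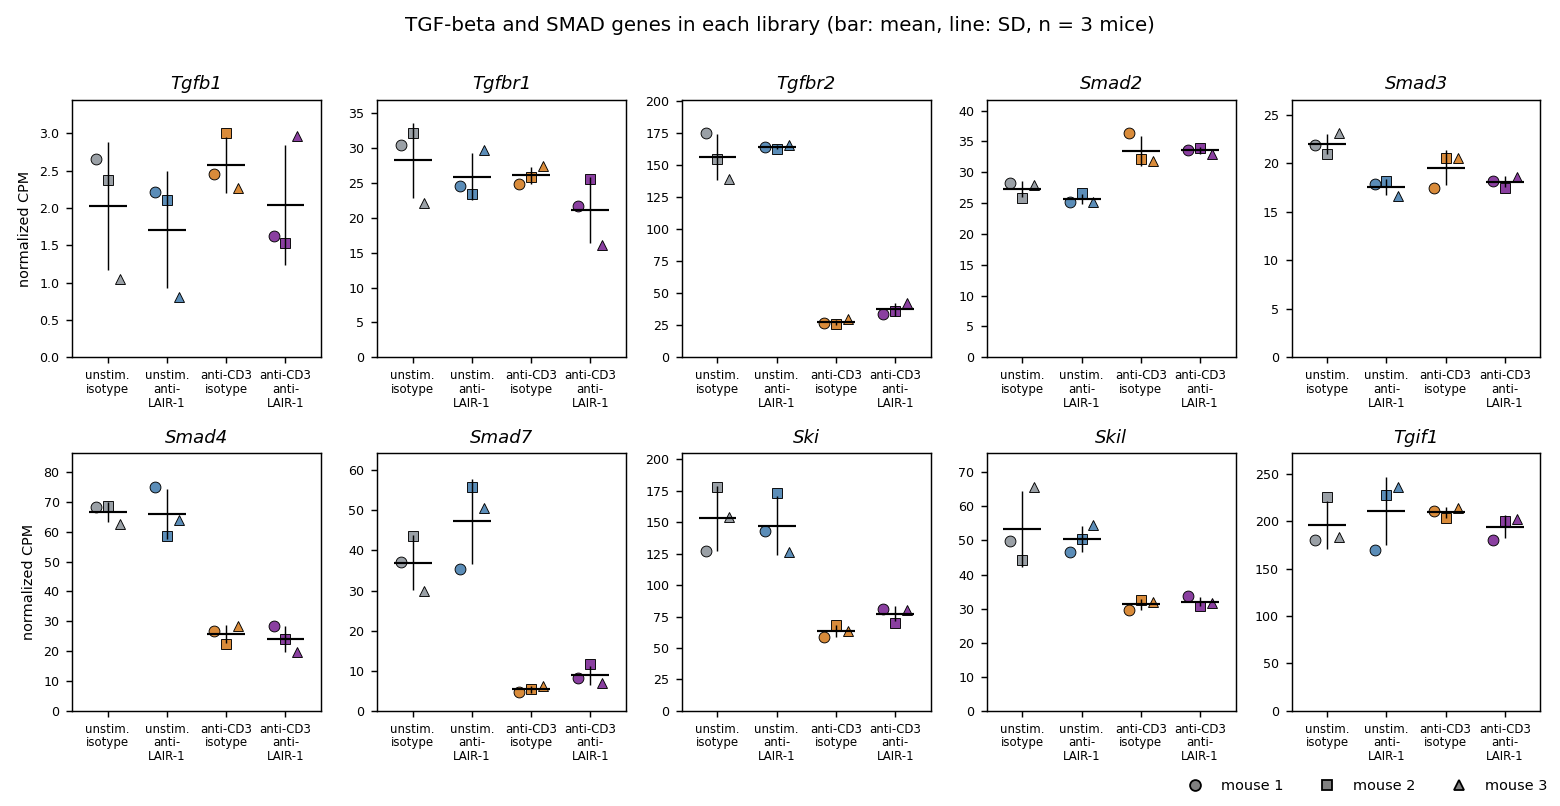
Normalized CPM of the 10 genes (vertical axes from 0) in the 4 conditions (horizontal axes). Each marker is the library of 1 mouse, with the mean as a bar and the SD as a line. Tgfbr2, Smad4, Smad7, Ski and Skil are lower in all 6 stimulated libraries than in all 6 unstimulated ones, while Tgfbr1 and Tgif1 overlap between conditions.

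The same stimulation was then compared within the anti-LAIR-1 libraries. Here too Tgfbr2, Smad4, Smad7, Ski and Skil fell. Smad2, which did not pass with isotype, passed as higher here. In the single mice it was higher by 0.42, 0.35 and 0.38 in log2 CPM here. With isotype the same mice gave 0.36, 0.31 and 0.19. The difference between both changes, tested as an interaction, was 0.13 ± 0.20 for Smad2 (SE, adjusted p = 0.867 in edgeR). A dependence of this rise on anti-LAIR-1 was thus not shown. Of the 9 genes tested, 5 were lower and 1 was higher, against 36.3% lower and 36.4% higher, or 72.7% in all, of 9000 genes tested. The median log2 fold change was -0.66, beside -0.04 over all genes. The groups did not overlap in 6 of the 9 genes, as in 74.7% of all genes tested.

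Tgfbr2 went from 164, 163 and 166 CPM in the unstimulated anti-LAIR-1 libraries of mice 1, 2 and 3 to 33.5, 36.0 and 42.7 CPM with anti-CD3 and anti-LAIR-1. The groups were far apart, with a log2 fold change of -2.16 ± 0.10 (SE, adjusted p = 6.2e-13 in edgeR). Smad7 had 35.3, 55.8 and 50.6 CPM unstimulated and 8.13, 11.6 and 6.98 CPM stimulated, a log2 fold change of -2.42 ± 0.20 (SE, adjusted p = 1.8e-09 in edgeR). Smad4 had 75.0, 58.7 and 64.0 CPM unstimulated and 28.3, 24.1 and 19.7 CPM stimulated, a log2 fold change of -1.45 ± 0.14 (SE, adjusted p = 2.5e-08 in edgeR). None of these 3 genes had stimulated and unstimulated libraries that overlapped.

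Of the corepressors, Ski had 143, 173 and 126 CPM unstimulated and 81.4, 70.2 and 79.9 CPM with both antibodies, a log2 fold change of -0.95 ± 0.11 (SE, adjusted p = 3.5e-07 in edgeR). Skil had 46.6, 50.3 and 54.4 CPM unstimulated and 33.7, 30.9 and 31.7 CPM stimulated, a log2 fold change of -0.66 ± 0.12 (SE, adjusted p = 7.2e-05 in edgeR). Both were again lower in each stimulated library. Tgif1 had 170, 227 and 236 CPM unstimulated and 180, 200 and 202 CPM stimulated, with overlapping groups and a log2 fold change of -0.14 (95% interval -0.36 to 0.08, adjusted p = 0.227 in edgeR).

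Smad2 had 25.1, 26.6 and 25.2 CPM in the unstimulated anti-LAIR-1 libraries and 33.6, 34.0 and 33.0 CPM with both antibodies. The 2 groups were tight and did not overlap, and the log2 fold change of 0.37 ± 0.13 passed the test (SE, adjusted p = 0.0176 in edgeR). The call was lost with upper quartile scaling (log2 fold change 0.16, adjusted p = 0.270 in edgeR), with library totals (adjusted p = 0.0903 in edgeR), with every library thinned to the smallest total (log2 fold change 0.19, adjusted p = 0.419 in edgeR) and in DESeq2 with the mouse as a block (adjusted p = 0.108).
Smad3 had 17.9, 18.2 and 16.6 CPM unstimulated and 18.2, 17.5 and 18.6 CPM stimulated, a log2 fold change of 0.02 (95% interval -0.32 to 0.37, adjusted p = 0.899 in edgeR), and the sign turned with upper quartile scaling (-0.18) and library totals (-0.09). Tgfbr1 had 24.5, 23.4 and 29.7 CPM unstimulated and 21.7, 25.5 and 16.1 CPM stimulated. Its groups overlapped, with a log2 fold change of -0.30 (95% interval -0.67 to 0.07, adjusted p = 0.129 in edgeR). With upper quartile scaling, under which the median of all genes was -0.24, Tgfbr1 was -0.51 (adjusted p = 0.0151 in edgeR) and Tgif1 -0.35 (adjusted p = 0.00587 in edgeR). With library totals alone, under which that median was -0.15, Tgfbr1 was -0.41 (adjusted p = 0.0396 in edgeR) and Tgif1 -0.25 (adjusted p = 0.0413 in edgeR). Tgif1 also passed without the unstimulated anti-LAIR-1 library of mouse 1 (-0.27, adjusted p = 0.0168 in edgeR).

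The RNA was sequenced to find which pathways LAIR-1 regulates in stimulated cells, so the libraries with anti-CD3 and anti-LAIR-1 were compared with those with anti-CD3 and isotype. None of the 10 pathway genes passed the test, against 5.76% of 8800 genes tested (3.90% higher and 1.86% lower). In edgeR 3 of the 10 had an unadjusted p under 0.05, namely Tgfbr2, Smad7 and Ski, all higher with anti-LAIR-1, and over all genes tested 1658 had such a p. In DESeq2 0 of the 10 passed. The median log2 fold change of the 10 genes was -0.04, beside 0.00 over all genes. This comparison shares the anti-CD3 isotype libraries with the comparison with unstimulated cells, and the values of both stand side by side.

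For Tgfbr2, the 3 libraries with anti-LAIR-1 (33.5, 36.0 and 42.7 CPM) all lay above the 3 with isotype (26.7, 25.7 and 29.8 CPM). The group means were 37.4 ± 4.77 and 27.4 ± 2.12 CPM (SD, n = 3), while the unstimulated level was 139 to 175 CPM. The log2 fold change was 0.44 ± 0.13 (SE, 95% interval 0.15 to 0.72, adjusted p = 0.0673 in edgeR), with differences of 0.32, 0.48 and 0.51 in the mice. Since each mouse gave a library to both groups, the mouse was also fitted as a block, which gave 0.45 and an adjusted p of 0.0440 in edgeR. The call thus depended on the fit. It was also made without a filter on low counts (adjusted p = 0.0423 in edgeR) and with all 12 libraries in 1 fit (adjusted p = 0.0319 in edgeR), but not in DESeq2 (adjusted p = 0.117, and 0.333 with the mouse as a block).

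Smad7 had 8.13, 11.6 and 6.98 CPM with anti-LAIR-1 and 4.61, 5.36 and 6.31 CPM with isotype. The groups did not overlap, though mouse 3 showed only a small difference (0.13 in log2 CPM, beside 0.76 and 1.04 in mice 1 and 2). The log2 fold change of Smad7 was 0.69 ± 0.26 (SE, 95% interval 0.14 to 1.24, adjusted p = 0.145 in edgeR).
Ski had 81.4, 70.2 and 79.9 CPM with anti-LAIR-1 and 58.4, 68.0 and 63.8 CPM with isotype. Here mouse 2 showed the smallest difference (0.05, beside 0.48 and 0.32 in mice 1 and 3), and the log2 fold change was 0.28 ± 0.10 (SE, 95% interval 0.07 to 0.49, adjusted p = 0.113 in edgeR). In Tgif1 the groups did not overlap either, with 180, 200 and 202 CPM with anti-LAIR-1 below 211, 203 and 214 CPM with isotype. The log2 fold change of Tgif1 was -0.11 (95% interval -0.26 to 0.05, adjusted p = 0.498 in edgeR). Groups that did not overlap were thus found in 4 of the 10 genes, and in 24.4% of all genes tested.

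The other 6 genes had intervals that include 0. The log2 fold changes were 0.02 for Smad2 (95% interval -0.24 to 0.27), 0.04 for Skil (-0.22 to 0.30), -0.09 for Smad4 (-0.42 to 0.24), -0.12 for Smad3 (-0.44 to 0.21), -0.30 for Tgfbr1 (-0.64 to 0.05) and -0.37 for Tgfb1 (-1.24 to 0.51). The wide interval of Tgfb1 reflects its few counts, and Smad2, Smad4 and Skil changed sign in some settings.
In the same libraries the summed level of the 4 naïve T cell markers was 276 to 358 CPM with isotype and 356 to 410 CPM with anti-LAIR-1. That of the 5 activation genes was 2207 to 2438 and 1905 to 2234 CPM. Both pairs of ranges overlapped, and genes within each sum differed in direction. Within each mouse the naïve sum was higher with anti-LAIR-1, while the activation sum was not lower in every mouse. Lef1 (log2 fold change 0.67), Tcf7 (0.63) and Il7r (1.33) passed as higher, while Ccr7 (-0.21) did not pass. Of the activation genes, Il2ra (-0.49) passed as lower. Myc (-0.28), Cd69 (-0.07), Nr4a1 (-0.05) and Egr2 (0.12) did not pass. The CD8 T cell markers summed to 1881 to 2010 CPM with isotype and 2317 to 2646 CPM with anti-LAIR-1. The part of these differences in the values of Tgfbr2, Smad7 and Ski was not tested.

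**Figure D2:**
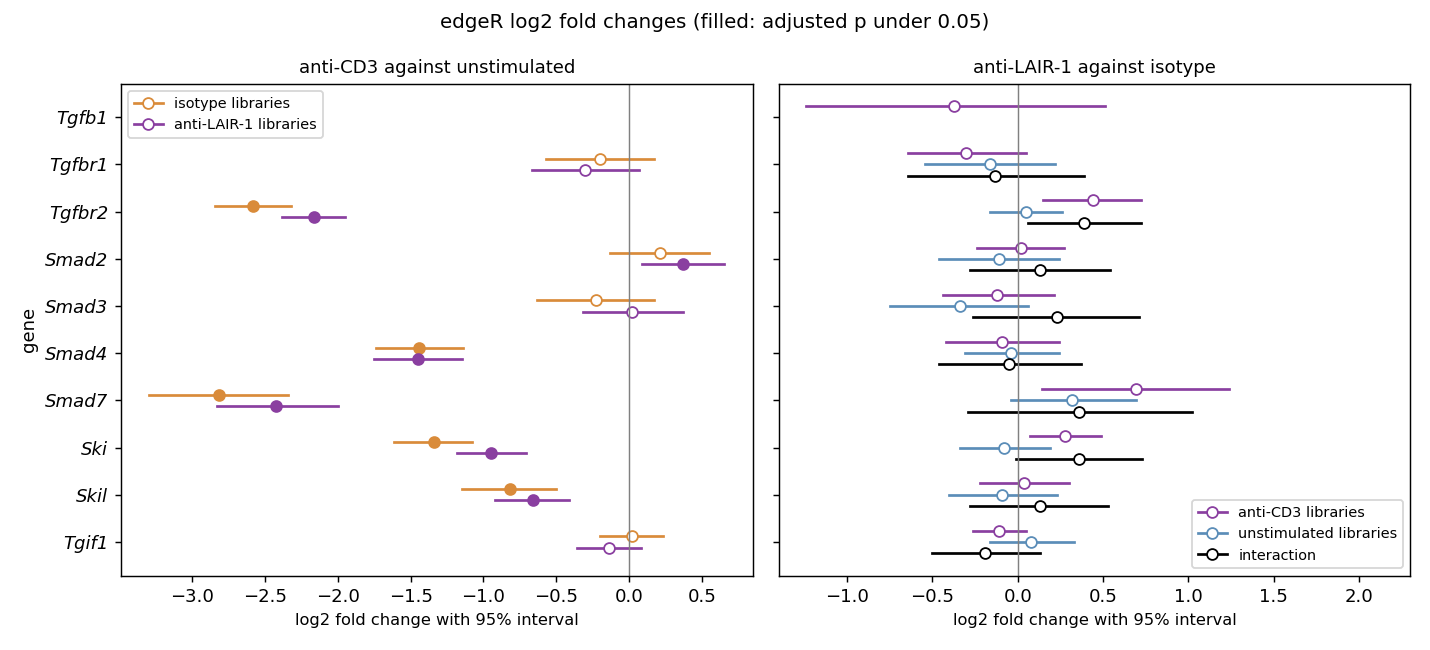
Log2 fold changes (horizontal axes) with 95% intervals (lines) of the 10 genes (rows) in edgeR, for anti-CD3 against unstimulated (left) and for anti-LAIR-1 against isotype and the interaction (right). Filled points passed an adjusted p of 0.05. On the left, 5 genes are lower in both sets of libraries, from -0.66 to -2.81, and on the right no gene passed.

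Without anti-CD3, none of the 9 genes tested passed with anti-LAIR-1, and 0% of 8770 genes in all passed in edgeR. An unadjusted p under 0.05 was reached by 0 of the 9 and by 384 of all genes, and DESeq2 also called 0 genes, with 213 at such an unadjusted p. Smad3 had groups that did not overlap, 21.9, 21.0 and 23.1 CPM with isotype and 17.9, 18.2 and 16.6 CPM with anti-LAIR-1, as had 9.86% of all genes tested. The log2 fold change of Smad3 was -0.34 (95% interval -0.75 to 0.06, adjusted p = 0.997 in edgeR). For Smad7 it was 0.32 (-0.04 to 0.69), and for Tgfbr2 it was 0.05 (-0.16 to 0.26), with adjusted p = 0.997 for both in edgeR.

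The difference between both effects of anti-LAIR-1, with and without anti-CD3, was tested as an interaction over all 12 libraries. None of the 9 genes tested passed, against 2.07% of 9223 genes (1.82% higher and 0.249% lower), and DESeq2 also passed none of them. In edgeR 1124 of the 9223 genes had an unadjusted p under 0.05, and so had 1 of the 9. That gene was Tgfbr2, with an interaction of 0.39 ± 0.16 (SE, 95% interval 0.06 to 0.72, adjusted p = 0.294 in edgeR). Ski and Smad7 both had an interaction of 0.36, with intervals of -0.01 to 0.73 and -0.29 to 1.02. The adjusted p-values of all 9 genes were 0.294 to 0.964 in edgeR.

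The rest of the pathway was read from a list of 121 genes by role, of which 106 were in the table. The list was chosen with earlier results of these data known. Shares of it that passed, here and below, therefore cannot be read as an excess over all genes. In the isotype libraries with anti-CD3, 70 of the listed genes could be tested. Of these, 24 rose, 32 fell and 14 did not pass, so that 80.0% passed beside 71.3% of all genes. In the anti-LAIR-1 libraries, 25 of 72 rose, 36 fell and 11 did not pass, so that 84.7% passed beside 72.7% of all genes. The values of single genes below are from the isotype libraries. In the anti-LAIR-1 libraries, listed genes that passed and are not described with isotype were Usp15 (0.47) and Ppm1a (0.28), which rose, and Cd101 (-1.10), Wwp1 (-0.63), Rock1 (-0.46), Furin (-0.42), Usp9x (-0.33) and Hdac1 (-0.27), which fell, all as log2 fold changes. Each of these 8 calls was lost in at least 1 other setting, most often that of Hdac1 (9 of 16 settings, adjusted p up to 0.248), Cd101 (6 of 14, up to 0.142) and Ppm1a (4 of 16, up to 0.485 in edgeR, with a log2 fold change of 0.08 under upper quartile scaling). Without the unstimulated anti-LAIR-1 library of mouse 1, Wwp1, Ppm1a, Hdac1, Rock1 and Cd101 did not pass (adjusted p 0.0527 to 0.115 in edgeR). The call of Hdac1 was also lost without the unstimulated libraries of mouse 2 or 3 or the stimulated ones of mouse 2 or 3 (adjusted p 0.0590 to 0.172 in edgeR), that of Cd101 without the unstimulated or the stimulated library of mouse 3 (adjusted p = 0.0681 and 0.0992 in edgeR), and that of Ppm1a without the stimulated library of mouse 3 (adjusted p = 0.0519 in edgeR).

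Among the co-receptors, Tgfbr3 (betaglycan, which presents TGF-beta to TGFBR2) had 15.3, 24.6 and 20.5 CPM in the unstimulated isotype libraries and 1.23, 0.858 and 2.43 CPM with anti-CD3 and isotype. It fell together with Eng (endoglin), with log2 fold changes of -3.68 ± 0.36 (SE) for Tgfbr3 and -1.58 ± 0.35 (SE) for Eng. Nrp1 (neuropilin-1), which also binds TGF-beta, moved the other way, from 0.995, 4.76 and 4.73 CPM to 28.6, 28.9 and 37.7 CPM. Its log2 fold change was 3.21 ± 0.32 (SE, adjusted p = 5.6e-09 in edgeR). Of ligands and proteins that handle latent TGF-beta, Itgav, the alpha-V integrin chain, rose with a log2 fold change of 1.69, while Furin, a protease that cuts the TGF-beta precursor, had -0.08 and did not pass.

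Of 33 tested SMAD regulators and cofactors, 18 fell and 7 rose, beside 36.1% lower and 35.3% higher of all genes. The ubiquitin ligases that target receptors and SMADs were mostly among those that fell, with log2 fold changes of -4.25 for Nedd4l, -1.60 for Smurf1, -0.75 for Smurf2, -0.90 for Itch, -1.22 for Trim33 and -0.59 for Rnf111. So did the coactivators Ep300 (-1.19), Crebbp (-0.58) and Kat2b (-3.13), the corepressor parts Ncor1 (-0.56) and Sin3a (-0.89), and the SMAD phosphatases Ctdsp1 (-2.88) and Ctdsp2 (-3.71). Lower too were Usp11 (-2.10), a deubiquitinase, Ldlrad4 (-3.43), an inhibitor of SMAD activation, Peli1 (-0.99), Runx3 (-1.29) and Zeb1 (-0.97). Nedd4l and Ldlrad4 were each counted only 13 times with anti-CD3 and isotype. In other settings they were -4.82 to -3.89 and -4.56 to -2.96. Higher were Fkbp1a (2.06), which holds the type I receptor inactive, Tgif2 (2.20), the paralogue of Tgif1, Strap (1.77), Pmepa1 (0.91), Runx1 (0.97) and Usp4 (0.32). Zeb2, a SMAD-binding repressor, was counted 1 time in the 3 unstimulated isotype libraries and 412 times with anti-CD3, a ratio of 217 (95% counting interval 38.8 to 8609). Such intervals, here and below, pool the libraries of a group and treat each read as independent. They leave out the spread between mice and any repeated reads of 1 molecule. The calls of Usp4 and Crebbp were lost in some settings, as with upper quartile scaling for Usp4 (0.15, adjusted p = 0.244 in edgeR), without unstimulated isotype library 2 for both (adjusted p = 0.102 and 0.0529 in edgeR), and without anti-CD3 isotype library 3 for Crebbp (adjusted p = 0.0904 in edgeR).

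In the other SMADs and the non-SMAD arm, Smad1 (-0.52) fell and Smad5 (-0.13) did not pass. Map2k3, a kinase that activates p38, rose most in the non-SMAD arm, from 79.3 to 92.6 CPM to 1351 to 1435 CPM, a log2 fold change of 3.94. Map3k7 (TAK1, 0.58) and Ppp2r2a (0.98) were also higher, while Mapk14 (p38 alpha, -0.83), Daxx (-0.73), Rhoa (-0.40), Tab1 (-0.89) and Tab2 (-0.29) were lower. With the mouse as a block, Smad1 and Tab1 no longer passed (adjusted p = 0.0561 and 0.0773 in edgeR), and both also lost the call with any 1 library left out (adjusted p up to 0.109 for Smad1 and 0.0570 to 0.242 for Tab1 in edgeR). Tab2 lost it without library 1 of either group or without anti-CD3 isotype library 3 (adjusted p 0.0749 to 0.191 in edgeR).

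Genes that TGF-beta is known to induce in T cells moved both ways with anti-CD3, 6 higher and 5 lower of 11 tested. Of all genes, 35.3% were higher and 36.1% lower. Itgae, which encodes CD103, fell (log2 fold change -3.08), and others that fell were Rhob (-2.48), Id2 (-1.56) and Id3 (-0.33). The call of Id3 was lost without library 1 of either group or without anti-CD3 isotype library 3 (adjusted p 0.0540 to 0.133 in edgeR). Xcl1, a chemokine, rose from 61.0 to 69.0 CPM to 16479 to 18639 CPM (log2 fold change 7.96), with Rgs16 (6.29), Hic1 (5.67), Cdkn1a (3.76) and Litaf (2.10). Hic1 was counted only 4 times in the unstimulated isotype libraries, and its log2 fold change was 4.95 to 6.22 in other settings. Ahr was counted 3 times unstimulated and 56 times stimulated, a ratio of 9.85 (95% counting interval 3.20 to 49.2).
Of 8 tested genes that TGF-beta is known to repress, 6 were higher and 1 was lower, beside 35.3% higher and 36.1% lower of all genes. Any part of TGF-beta in these changes was not tested. Myc (3.94) and Prf1 (3.29, perforin) rose and Klf2 (-3.74), a factor of quiescence and trafficking, fell. Prf1 was counted only 6 times unstimulated, and its log2 fold change was 2.56 to 5.13 in other settings. Ifng, Il2 and Tbx21 were at 0 counts in the unstimulated isotype libraries and were at least 96.2-fold, 42.4-fold and 16.4-fold higher with anti-CD3, against a floor of 3 counts over the group. Gzmb (granzyme B) was counted 1 time unstimulated and 608 times stimulated, a ratio of 321 (95% counting interval 57.4 to 12695). This interval too leaves out the spread between mice.

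**Figure D3:**
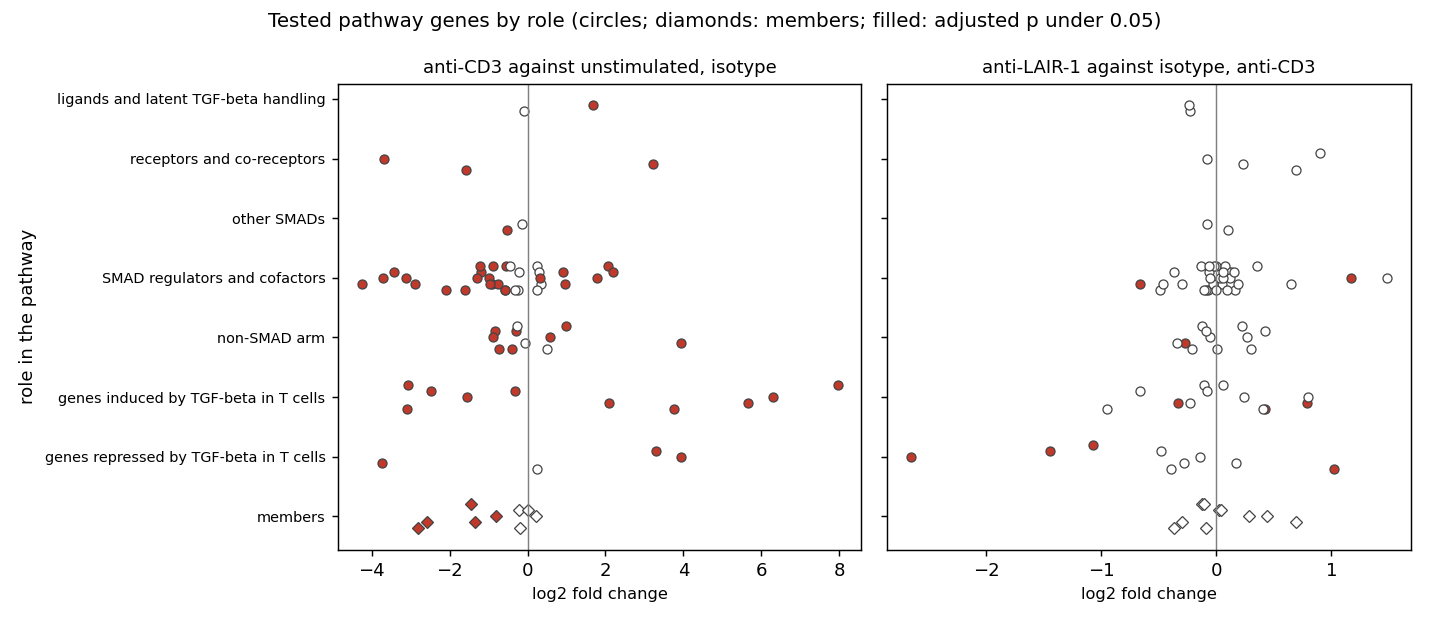
Log2 fold changes (horizontal axes) of tested pathway genes by role (rows), for anti-CD3 against unstimulated with isotype (left) and for the effect of anti-LAIR-1 in stimulated cells (right). Circles are listed genes, diamonds are those of the 10 genes that were tested, and filled symbols passed an adjusted p of 0.05 in edgeR. Genes with 3 or fewer counts in a group are left out. On the left filled symbols lie on both sides of 0 in most roles, and on the right few are filled.

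With anti-LAIR-1 in stimulated cells, 4 of the 72 tested genes of this list were higher and 6 lower, so that 13.9% passed beside 5.76% of all genes. By role, 44.4% of 9 genes repressed by TGF-beta passed and 25.0% of 12 induced ones. The shares were 9.09% of 11 genes of the non-SMAD arm and 6.25% of 32 SMAD regulators and cofactors. No tested receptor, ligand or other SMAD of the list passed. Since the list was chosen with earlier results of these data known, its share cannot be read as an excess. The 4 higher genes were Ctdsp2, Klf2, Itgae and Id3. Ctdsp2, a phosphatase that removes phosphate from the linker of SMADs, had 40.8, 42.9 and 47.6 CPM with anti-LAIR-1 and 24.6, 18.9 and 16.2 CPM with isotype. The groups were apart, with a log2 fold change of 1.17 ± 0.15 (SE, adjusted p = 1.3e-04 in edgeR). Klf2 had 174, 241 and 237 CPM with anti-LAIR-1 and 106, 110 and 106 CPM with isotype, a log2 fold change of 1.02 ± 0.11 (SE, adjusted p = 2.8e-05 in edgeR).

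Itgae had 14.1, 13.9 and 13.1 CPM with anti-LAIR-1 and 6.15, 9.65 and 7.77 CPM with isotype, a log2 fold change of 0.79 ± 0.21 (SE, adjusted p = 0.0313 in edgeR). The call of Itgae was lost in 9 of 16 other settings, among them DESeq2 (adjusted p = 0.0577) and the fits without isotype library 1 or 3 or without any of the anti-LAIR-1 libraries (adjusted p 0.0575 to 0.0980 in edgeR). Id3, an inhibitor of E proteins, had 176, 169 and 160 CPM with anti-LAIR-1 and 127, 131 and 122 CPM with isotype, a log2 fold change of 0.42 ± 0.08 (SE, adjusted p = 0.00358 in edgeR). In all 4 genes, every library with anti-LAIR-1 was above every library with isotype.

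The 6 lower genes were Gzmb, Ifng, Il2, Zeb2, Xcl1 and Map2k3. Il2, the T cell growth factor, had 9.35, 6.46 and 8.25 CPM with anti-LAIR-1 and 15.4, 18.0 and 17.3 CPM with isotype, a log2 fold change of -1.07 ± 0.20 (SE, adjusted p = 0.00332 in edgeR). Gzmb had a log2 fold change of -2.65 ± 0.22 (SE) and Ifng one of -1.44 ± 0.17 (SE). Xcl1 had 14345, 14364 and 12948 CPM with anti-LAIR-1 and 17271, 18639 and 16479 CPM with isotype, a log2 fold change of -0.33 ± 0.06 (SE, adjusted p = 0.00496 in edgeR). Map2k3 had a log2 fold change of -0.27 (adjusted p = 0.0229 in edgeR), which did not pass without isotype library 1 or 2 or anti-LAIR-1 library 2 or 3 (adjusted p 0.0570 to 0.102 in edgeR). Zeb2 was at -0.66 (adjusted p = 0.0464 in edgeR). Its call was lost with the mouse as a block (adjusted p = 0.0539 in edgeR and 0.207 in DESeq2) and with library totals (adjusted p = 0.0534 in edgeR). All 12 libraries in 1 fit (adjusted p = 0.0651 in edgeR) and thinning (adjusted p = 0.0778 in edgeR) also lost it. So did leaving out isotype library 2 or 3 or anti-LAIR-1 library 2 or 3 (adjusted p 0.0732 to 0.191 in edgeR). Of the co-receptors none passed. Tgfbr3 had 2.44, 2.72 and 4.02 CPM with anti-LAIR-1 and 1.23, 0.858 and 2.43 CPM with isotype, a log2 fold change of 0.90 (95% interval -0.04 to 1.84, adjusted p = 0.289 in edgeR).

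Without anti-CD3, 0 of 66 tested genes of the list passed in edgeR, and DESeq2 called none of them. In edgeR 6 of the 66 had an unadjusted p under 0.05, beside 384 of all 8770 genes tested. In the interaction, Ctdsp2 (1.30), Klf2 (0.69) and Xcl1 (-0.73) passed, 3.95% of 76 tested beside 2.07% of all genes, though Klf2 did not pass in DESeq2 (adjusted p = 0.138).

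**Figure D4:**
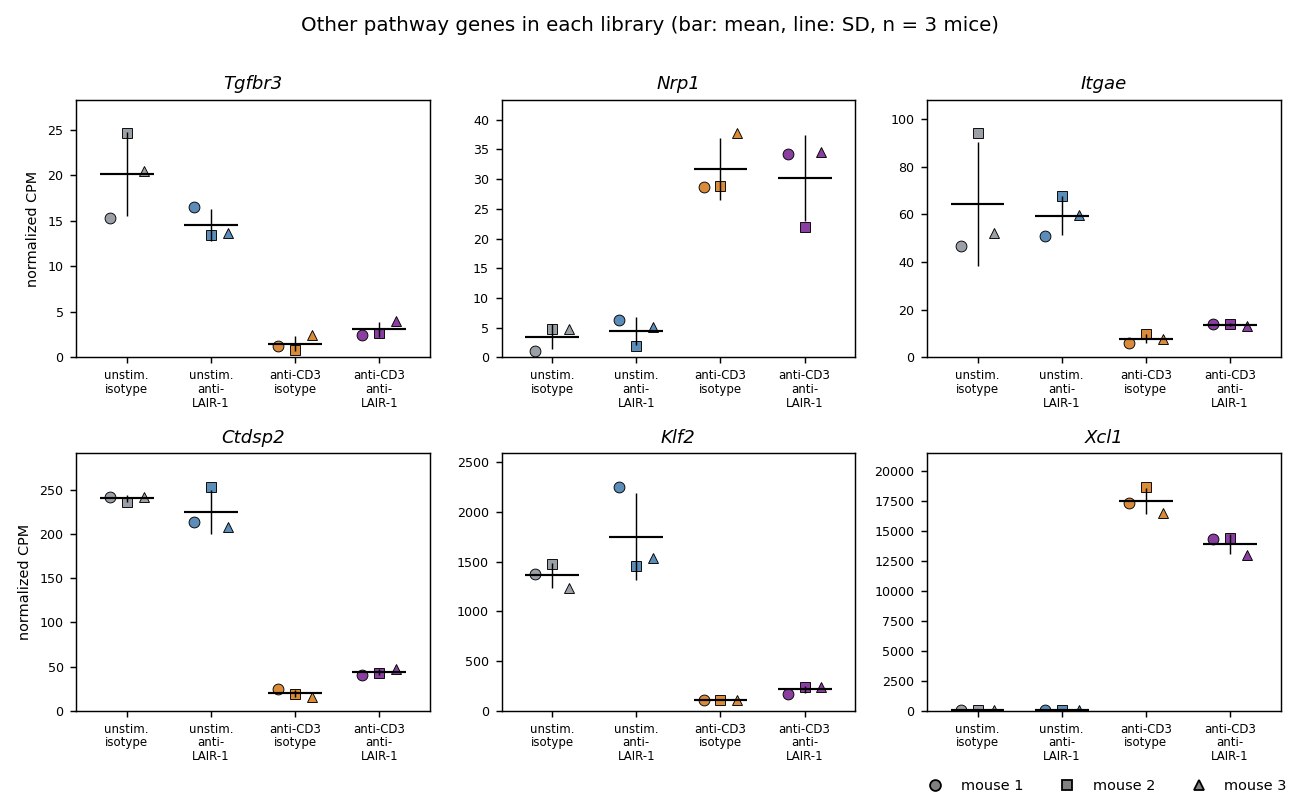
Normalized CPM (vertical axes from 0) of 6 other pathway genes in the 4 conditions (horizontal axes). Each marker is the library of 1 mouse, with the mean as a bar and the SD as a line. Ctdsp2, Itgae and Klf2 are lower in stimulated libraries, and within these higher with anti-LAIR-1 than with isotype, while Nrp1 and Xcl1 are higher in stimulated libraries.

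For Smad7 and Tgfbr2, the genes most alike over the 12 libraries were found among 6787 genes with a mean of at least 10 CPM. Smad7 was most like Aldh3a2 (Pearson r 0.995 of log2 CPM), Vim (0.992) and Adamts10 (0.990). Tgfbr2 was most like Ms4a6b, Npc2 and Sh3bgrl3, each with r 0.998. These values describe 12 libraries that fall into stimulated and unstimulated ones and share their mice, so that they mainly follow that split. With anti-CD3 in the isotype libraries, the log2 fold changes were -2.34 for Aldh3a2, -3.97 for Vim, -2.30 for Adamts10, -1.87 for Ms4a6b, -2.03 for Npc2 and -1.69 for Sh3bgrl3. With anti-LAIR-1 in stimulated cells only Sh3bgrl3 of these 6 passed, with a log2 fold change of 0.35 (adjusted p = 0.0139 in edgeR).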

How the data were processed

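Naïve CD8+ T cells of 3 mice were cultured in 4 conditions, and 1 library per mouse and condition was made. The deposited values are raw read counts per gene symbol, which the authors made with an adapted CEL-seq protocol (reads from the 3′ end of transcripts), alignment of read 2 to the mm10 transcriptome with BWA MEM, removal of reads mapping equally well to multiple places, and the MapAndGo script. The use of molecular identifiers is not given in the sources used here. At library totals of 1781218 to 7725545 counts, 3 counts were 0.407 to 1.58 CPM as scaled below.

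Comparisons were fitted across all genes with edgeR 4.0.16 in R 4.3.3, using TMM, filterByExpr, the two-sided quasi-likelihood F-test and p-values adjusted by Benjamini-Hochberg across every gene in the fit (threshold 0.05). CPM were scaled by TMM over 12 libraries, and log2 CPM had a prior count of 2. Each comparison of 2 groups used its 6 libraries and the interaction used all 12. DESeq2, the tool of the study, served as an alternative here in version 1.42.0. Loci are from GENCODE M21 (GRCm38), and promoter windows from RefSeq. An exact permutation test of 3 against 3 cannot give a two-sided p under 0.1 and was not used.

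The mouse numbers in the labels pair the libraries, since each mouse gave cells to all 4 conditions. Deviations from group means correlated with a mean r of 0.04 (18 pairs, -0.01 to 0.09) between libraries of the same mouse and -0.02 (36 pairs) between different mice, across 9223 genes that are not independent. No 2 libraries of a group were copies.

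The 10 genes, the list of 121 pathway genes and the marker lists were chosen with earlier results of these data known. Of these lists, 1 pathway gene and 1 marker are not reported here, and the marker sum was computed without the latter. Text names all 10, each listed gene that passed in a comparison described there by name, and, for the 2 members with the largest change with anti-CD3, the 3 genes with the most similar pattern. Smad5, named though it did not pass, and the 6 genes in the plot of other pathway genes by library were chosen after their values were seen. Alternatives were other scalings and filters, DESeq2, the mouse as a block, all libraries in 1 fit, thinning to the smallest total and leaving out each library. Scaling by library totals alone was added after seeing the data. The edgeR fit with and without the mouse as a block, and DESeq2 without it, were run on simulated data in which 200 genes differed 2-fold. The other alternatives were not simulated, and many more genes than these passed with anti-CD3.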

Additional observations from a re-analysis of the deposited data

Results flagged for a closer look

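The effect of anti-LAIR-1 differed with and without anti-CD3 for 3 listed pathway genes, by the interaction over 12 libraries in edgeR. Ctdsp2 had an interaction of 1.30 (standard error 0.17, adjusted p = 5.0e-05 in edgeR). Its unstimulated levels were 242, 236 and 242 CPM with isotype and 213, 253 and 208 CPM with anti-LAIR-1, which overlapped. Xcl1 had an interaction of -0.73 (adjusted p = 0.00300 in edgeR), with unstimulated levels of 69.0, 69.0 and 61.0 CPM with isotype and 103, 70.3 and 96.4 CPM with anti-LAIR-1. These did not overlap, though Xcl1 did not pass in unstimulated cells. Its interaction thus draws on the unstimulated libraries as well as on the stimulated ones. Ctdsp2 and Xcl1 passed in all 21 other settings. Klf2 had an interaction of 0.69 (adjusted p = 0.0417 in edgeR), which was lost in 11 of 21 other settings, among them DESeq2 (adjusted p = 0.138) and 9 of the 12 fits that left out a library (adjusted p 0.0726 to 0.135 in edgeR), all but those without unstimulated isotype mouse 3, unstimulated anti-LAIR-1 mouse 1 or stimulated anti-LAIR-1 mouse 1. Its unstimulated levels were 1380, 1475 and 1232 CPM with isotype and 2251, 1460 and 1534 CPM with anti-LAIR-1, and the highest of these came from mouse 1. With 3 libraries a group, no group was tested for a single library far from the others.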

How the results depend on the processing

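For the 10 genes, 734 of 777 values under other settings kept their direction and their side of the threshold, 4 fell below it, 8 rose past it and 31 turned sign, none of these last past the threshold as reported. The falls of Tgfbr2, Smad4, Smad7, Ski and Skil with anti-CD3 passed in each of 16 settings, with isotype and with anti-LAIR-1. For anti-LAIR-1 in stimulated cells, the count of the 10 genes that passed went from 0 to 1 (Tgfbr2) without a filter on low counts, with the replicate block and with all 12 libraries in 1 fit. Over all genes, 549 of 8800 passed with the block and 490 of 9223 in 1 fit. Without the filter the wider list went from 10 to 16 genes, and all genes from 507 of 8800 tested to 732 of 13347. In the interaction without the filter, the wider list went from 3 to 5, and all genes from 191 of 9223 to 275 of 14323. The cause was not tested.

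The replicate block (the mouse as a term) changed the call of no member other than Tgfbr2 in edgeR (0.45, adjusted p = 0.0440), and in DESeq2 that of Smad2 with anti-CD3 in the anti-LAIR-1 libraries (0.39, adjusted p = 0.108).

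Values near 0 turned sign as follows, as log2 fold changes. With anti-CD3 in the isotype libraries, Tgif1 was -0.16 with upper quartile scaling, -0.04 with at least 10 counts in every library, -0.03 when thinned to the smallest total and -0.08 with library totals, and -0.06 to 0.13 with a library left out. With anti-CD3 in the anti-LAIR-1 libraries, Smad3 was -0.18, -0.02, -0.28 and -0.09 in these settings, and -0.01 to 0.07 with a library left out. For anti-LAIR-1 in stimulated cells, thinning gave -0.09 for Smad2 and -0.11 for Skil, and leaving out a library gave -0.02 to 0.07 for Smad2, -0.00 to 0.06 for Skil and -0.23 to 0.02 for Smad4. For anti-LAIR-1 in unstimulated cells, thinning gave 0.00 for Smad4, and leaving out a library gave -0.02 to 0.12 for Tgfbr2, -0.14 to 0.04 for Smad4, -0.21 to 0.06 for Ski, -0.19 to 0.08 for Skil and -0.00 to 0.22 for Tgif1. In the interaction, thinning gave 0.03 for Tgfbr1 and -0.03 for Skil, and leaving out a library gave -0.28 to 0.01 for Tgfbr1, -0.19 to 0.06 for Smad4 and -0.04 to 0.22 for Skil.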
